A study of Mus musculus with 8 samples.

Results

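Calm2, Ppp3cb, Ppp2ca and CAMTA1 are the genes of calcium and phosphatase signalling on a small spotted array for slow and fast muscle. They are 4 of the 22 features of the array, 20 of which carry a gene name, and each was printed as 6 spots. The members were taken by the gene symbols that the platform annotation gives to the probes, with no use of the measured values.

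Calmodulin is the small calcium sensor of the cell: it binds calcium ions and then docks onto many enzymes. Calcineurin, the phosphatase that calcium and calmodulin activate, strips phosphate from NFAT transcription factors, and in skeletal muscle this route is known for its part in the slow fibre programme. Protein phosphatase 2A is a broadly expressed serine and threonine phosphatase that does not need calmodulin. Calmodulin-binding transcription activators form a family of transcription factors that carry calmodulin-binding motifs.

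Calm2 encodes calmodulin and lies on chromosome 17 from 87433401 to 87446935 of the mouse assembly GRCm38.p6. Ppp3cb encodes the beta form of the catalytic subunit of calcineurin and lies on chromosome 14 from 20499364 to 20546573. Ppp2ca encodes the alpha form of the catalytic subunit of protein phosphatase 2A and lies on chromosome 11 from 52098824 to 52122749. CAMTA1 was annotated to gene ID 23261, which matched 0 genes of the mouse table. The mouse gene of like symbol, Camta1, has the ID 100072, so no mouse position is given for the CAMTA1 probes. Whether these probes were made for the mouse transcript is not known, which limits what their signals say about mouse Camta1.

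RNA came from the soleus, a slow muscle, and from the flexor digitorum brevis (FDB), a fast muscle, of CD-1 mice aged 4 to 5 weeks. Amplified RNA was made as amino allyl antisense RNA, and un-amplified RNA was copied from total RNA into amino allyl cDNA. Of the 8 arrays, each with an RNA in Cy3 and another in Cy5, 4 formed 2 dye-swap pairs of fast against slow muscle. The scanner files of the first pair are labelled amplified and those of the second un-amplified. The other 4 arrays formed a loop: slow amplified against slow un-amplified, slow un-amplified against fast amplified, fast amplified against fast un-amplified, and fast un-amplified against slow amplified, each with the first-named RNA in Cy3. The labels do not say how many animals gave RNA, nor that arrays hold separate extracts, so p-values measure only the spread between these arrays, which may be technical. In the loop test of amplification, that spread is the difference of the amplification effect between the muscles. In whole-muscle RNA, fewer cells of a type and less RNA per cell cannot be told apart.

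The amplification labels of the dye-swap arrays conflict. The ratio columns of the authors' deposited table that are labelled amplified matched the scanner files labelled un-amplified, and the reverse, in 97.6% to 100% of values. The fast/slow comparison does not use these labels, and the loop is not touched by the conflict. Every value of a dye-swap pair below is given by the label of its scanner files. The array also holds 3 of 5 listed slow muscle markers and 6 of 7 listed fast ones. Myh7 (slow myosin heavy chain) and Tnnc1 (slow troponin C) were lower in FDB, and Myh1 (a fast myosin heavy chain) and Pvalb (parvalbumin) were higher, while the other 5 markers did not pass the test. Of the markers of other tissues, the array holds Myh6 (a heart myosin) and Mgp (connective tissue), neither of which passed in the fast/slow test, and no marker of blood, nerve, fat or immune cells.

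How well each member was measured differed between arrays. Usable spots, those that the image software had not marked as empty or poor in either channel, numbered 43 of 48 for Ppp3cb, 40 of 48 for Ppp2ca, 36 of 48 for Calm2 and 28 of 48 for CAMTA1. Over all features they were 848 of 1056, or 80.3%. Calm2 and Ppp2ca had 0 usable spots on the first array of the first pair, and CAMTA1 had 0 on loop arrays 1 and 4.

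Signal over background could be formed throughout only in the first pair. There, over usable spots, the mean signal was 4.83 ± 1.65 times background for Ppp3cb (SD, n = 4 channels) and 3.73 ± 1.91 times for CAMTA1 (SD, n = 4). It was 4.57 ± 0.0637 times for Calm2 and 3.50 ± 0.669 times for Ppp2ca (SD, n = 2 channels, both of 1 array). The members were weakest on the first array: in its Cy3 channel, fast amplified RNA, 0 of 24 member spots reached 2 SDs of the background above it, against 53 of 108 spots of the other features. In its Cy5 channel, slow amplified RNA, 12 of 24 member spots did, against 74 of 108 of the other features. On the second array of that pair 24 of 24 member spots did in both channels, against 84 of 108 in Cy3 and 83 of 108 in Cy5. The other features thus also had their lowest counts on the first array. For the loop, the ratio was formed as integral plus background, over background. This assumes that the deposited integrals were already background-subtracted, and without that assumption the ratios would be lower. In un-amplified loop channels, over spots with a recorded background, the median ratio to background ran from 3.48 to 17.0 for Calm2. It ran from 5.55 to 88.4 for Ppp3cb, from 3.73 to 16.1 for Ppp2ca and from 3.82 to 16.1 for CAMTA1. In amplified loop channels the background was recorded as 0 at most member spots and at every CAMTA1 spot.

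In the second pair the background was recorded as 0 around many spots, 127 of 132 in the Cy5 channel of its first array, so no ratio to background is given. There, before any subtraction, the median spot signal of Ppp3cb was 8556 in Cy3 and 2216 in Cy5 on the first array and 4303 and 3085 on the second. Calm2 gave 2304 and 320 on the first array and 920 and 1472 on the second. Ppp2ca read 349.5 and 71 on the first array and 384.5 and 190.0 on the second.
CAMTA1 read 245 in Cy3 and 0 in Cy5 on the first array, and 95.5 and 7 on the second. In Cy5 its spots ran from 0 to 5 for slow muscle and from 0 to 21.5 for fast muscle. By this median pixel signal the channel was near-empty, but the ratios were formed from mean pixel signal. By the mean, these Cy5 spots stood 1.49 to 2.81 background SDs above background in slow muscle and 0.884 to 1.85 in fast muscle. Of 24 member spots, 24 in Cy3 and 22 in Cy5 reached 2 SDs on the first array, and 24 and 18 on the second. Of the 108 spots of the other features, 103 and 102 did on the first array, and 102 and 96 on the second.

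To follow one member across channels of unlike brightness, its background-subtracted signal, as the median of the usable spots, was divided by that of the median feature of the same channel. This measure was chosen after the values were seen, it is compared only between channels for one gene, and a channel with no usable spot has no value. Ppp3cb stood between 45.0% and 112% of the median feature in 14 of the 16 channels. Both exceptions were slow un-amplified RNA of the loop, at 379% on loop array 1 and 233% on loop array 2. Calm2 stood between 28.8% and 115% in the 8 loop channels, at 44.1% and 66.6% on the one array of the first pair with usable spots, and between 8.90% and 27.2% in the second pair.
Ppp2ca lay between 13.7% and 39.9% in the loop, at 28.5% and 32.0% on that one array of the first pair, and between 1.97% and 7.83% in the second pair. CAMTA1 lay between 21.4% and 35.8% in the un-amplified channels of the loop, and at 4.47% (1 spot) and 6.96% (6 spots) in the 2 amplified loop channels with usable spots. In the first pair it ran from 4.58% to 62.8%, and in the second from 0% to 2.82%. The second pair lay wholly below the first for Calm2, Ppp2ca and CAMTA1, as it did for 6 of the 19 features with values in both pairs (31.6%), and 9 of the 19 (47.4%) did not overlap in one direction or the other. The Ppp3cb values of the pairs overlap.

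**Figure D1:**
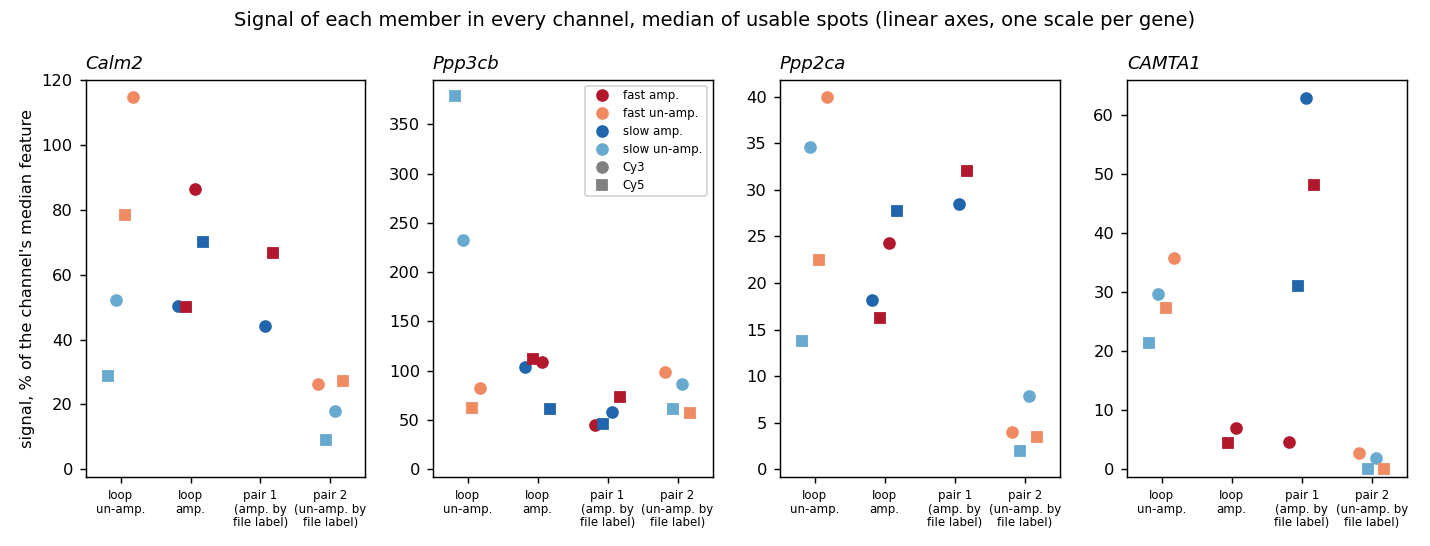
Background-subtracted signal of each gene in every channel with usable spots, as a percentage of the median feature of that channel (linear axes, one scale per gene). Each point is 1 channel (median of its usable spots), circles Cy3 and squares Cy5, coloured by muscle and kind of RNA; Ppp3cb reaches 379% and 233% in slow un-amplified RNA of the loop and stays at or below 112% elsewhere.

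The ratios below are log2 of Cy3 over Cy5, averaged over the usable spots of a gene and centred on the median feature of the array, so that 0 is the array's middle. Calm2 read -0.05 on the second array of the first pair, 1.59 and -1.03 on the arrays of the second pair, and -0.03, -0.34, -0.51 and 0.31 on loop arrays 1 to 4. Turned to fast over slow, the mean was above 0 on all 5 arrays that set the muscles against each other. It was 0.05 for the first pair, 1.59 and 1.03 for the second, and 0.34 and 0.31 in the loop. As Cy3 over Cy5, single spots ran across 0 on the first-pair array (-0.22 to 0.24) and on loop array 2 (-0.90 to 0.18). Without centring, loop array 2 read 0.006 as Cy3 over Cy5, with slow muscle in Cy3. The value of 1.03 comes from the array whose file headers and file names disagree on the dyes. With the dyes of the file names it would be -1.03, and the mean given below would be 0.30 in place of 0.82. The authors' deposited ratios matched that array in 97.6% of values with the dyes of the headers and in 0% with those of the file names. With the dyes of the headers, fast over slow there was -2.83 for Myh7 and 3.69 for Pvalb. On the other array of that pair these were -3.33 and 3.18. On loop arrays 2 and 4 the RNAs also differ in amplification, in opposite directions. With the dyes of the headers, the second pair gave the highest values.

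Ppp3cb read 0.07 and 0.20 on the arrays of the first pair, 0.92 and 0.00 on those of the second, and -2.49, 1.18, 0.06 and 0.00 on loop arrays 1 to 4. It was the median feature itself on the second array of the second pair and on loop array 4. Turned to fast over slow, the first pair gave 0.07 and -0.20, and the second pair gave 0.92 and 0.00. Its far values were those of loop arrays 1 and 2, the arrays that hold slow un-amplified RNA, and on both it was higher in that RNA than in the RNA beside it.

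Ppp2ca read 0.36 on the second array of the first pair, 0.54 and 0.40 in the second pair, and -0.19, 0.54, -0.57 and 0.15 on the loop arrays. In the second pair Cy3 exceeded Cy5 whichever muscle it held, so fast over slow was 0.54 on its first array and -0.40 on its second. No Ppp2ca value lay further than 0.57 from the middle of its array, the narrowest range of the members.

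CAMTA1 read -1.18 and 0.80 on the arrays of the first pair, 0.79 and 0.45 on those of the second, 2.43 from 1 spot on loop array 2 and -2.74 on loop array 3. In the first pair slow muscle was the higher on both arrays, but on the first of them the 3 usable CAMTA1 spots stood only 0.249 to 0.448 background SDs above background in fast muscle, against 2.38 to 3.39 SDs in slow muscle. In the second, Cy3 exceeded Cy5 in both orientations, as for Ppp2ca. In the authors' deposited table, the columns that match those scanner files, labelled amplified there, give CAMTA1 4.85 from 1 probe and 3.33 from 5 probes after centring, again with Cy3 above Cy5 in both. The deposited ratios match median pixel signal less background. Those formed here use mean pixel signal, with an offset of 50 in background correction. The cause of the gap between them was not tested.

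Spots of one gene varied less than arrays did. The SD over the usable spots of an array ranged from 0.0134 to 0.236 for Ppp3cb, from 0.0659 to 0.376 for Calm2, from 0.0921 to 0.283 for Ppp2ca and from 0.0699 to 0.230 for CAMTA1. The spots of a gene share the RNA and the array and were not counted as replicates.

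**Figure D2:**
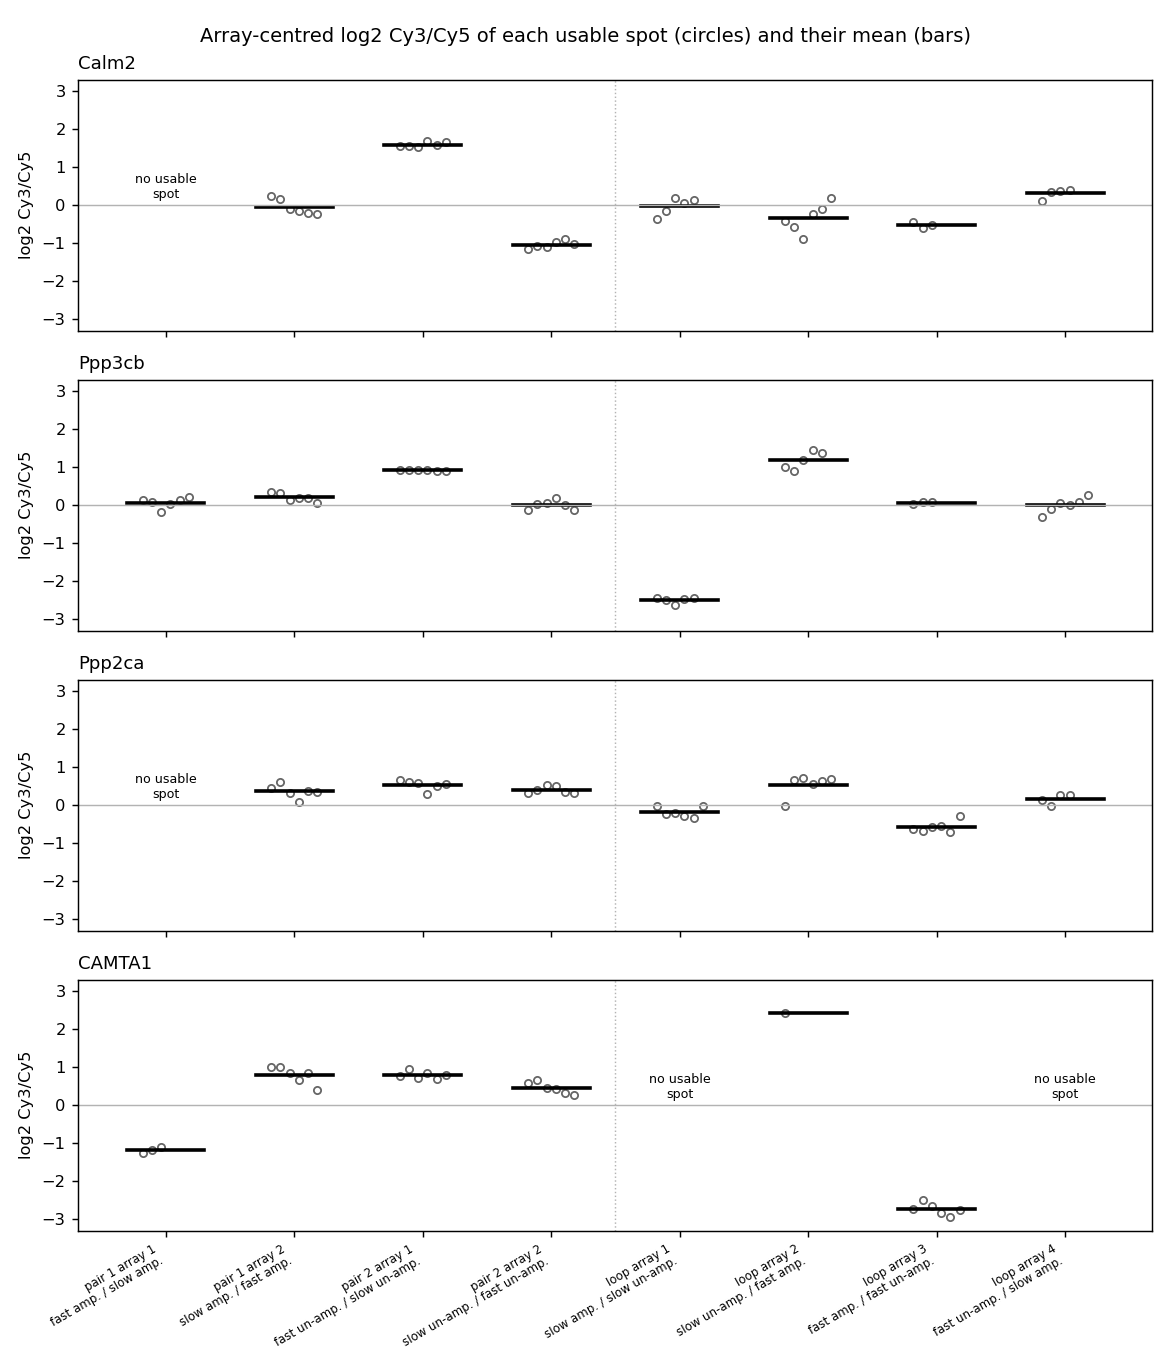
Array-centred log2 Cy3/Cy5 of the 4 genes on the 8 arrays, with the RNA in Cy3 and in Cy5 named under each array. Circles are usable spots and bars their mean. The mean of Ppp3cb drops to -2.49 on loop array 1 and that of CAMTA1 to -2.74 on loop array 3. The Ppp2ca means stay within 0.57 of 0, though some single spots lie further out.

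Fast and slow muscle were then compared over at most 3 replicate ratios, 1 from either dye-swap pair and 1 from the loop with its dye effect balanced out. None of the 4 members passed limma's test at an adjusted p of 0.05, where 5 of 21 features (23.8%) did. At an unadjusted p of 0.05, 6 features passed, none of them a member. The median size of the change, on the log2 scale, was 0.24 for the members and 0.49 for all features tested.

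Calm2 showed the largest difference of the members. Its log2 fast/slow ratio was 1.31 in the second pair and 0.33 in the loop, with a mean of 0.82 (SE 0.56, n = 2, limma adjusted p = 0.355), which is 1.77-fold higher in FDB. The 95% interval of -0.32 to 1.96 holds 0, and the pair and the loop differ from each other by more than the loop differs from 0.

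Ppp3cb, the calcineurin subunit, gave -0.07 in the first pair, 0.46 in the second and -0.59 in the loop. Its mean of -0.07 (SE 0.46, n = 3, limma adjusted p = 0.935) has an interval from -0.996 to 0.86, so a change of nearly 2-fold in either direction is not excluded by these arrays. Ppp2ca gave 0.07 in the second pair and -0.19 in the loop, with a mean of -0.06 (SE 0.56, n = 2, limma adjusted p = 0.935) and an interval from -1.20 to 1.08. The sign of both means turned under other settings, which are given at the end.

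CAMTA1 gave -0.99 in the first pair, where usable spots in fast muscle on the first array stood at most 0.448 background SDs above background. The second pair gave 0.17, with a Cy5 channel that was near-empty by median pixel signal. The mean was -0.41 (SE 0.56, n = 2, limma adjusted p = 0.731), with an interval from -1.55 to 0.73. When features near background were left out, CAMTA1 had no fast/slow value. The loop gives no fast/slow value for CAMTA1, because its slow amplified RNA had no usable CAMTA1 spot. The SE is the same for all features with equal n, because limma pooled the variance fully over the array.

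**Figure D3:**
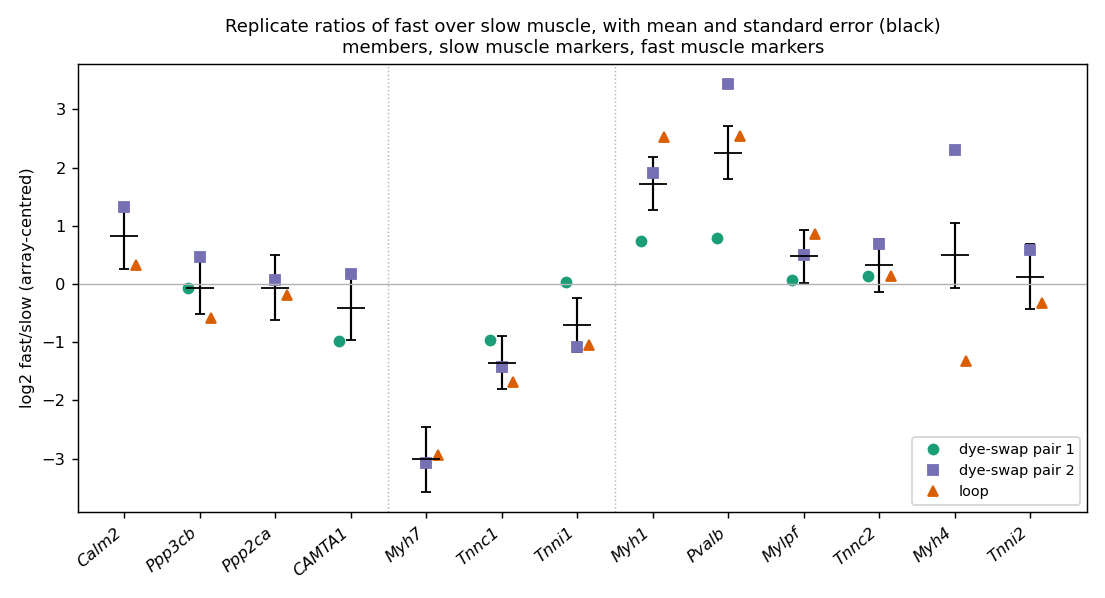
Log2 fast/slow ratios of the 4 genes and, for scale, of the slow (Myh7, Tnnc1, Tnni1) and fast muscle markers: circles, squares and triangles are the first pair, the second pair and the loop, and black bars the mean with limma's standard error. The members lie between -0.99 and 1.31, and Myh7 and Pvalb mark the ends of the plot at means of -3.01 and 2.25.

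The loop also compares amplified with un-amplified RNA, since it alone puts both on one array. Amplified RNA was labelled as antisense RNA and un-amplified RNA as cDNA, so amplification and the kind of labelled target cannot be told apart. None of the 3 members that could be fitted passed, where 9 of 21 features (42.9%) did: Calm2 read -0.13 (limma adjusted p = 0.845), Ppp2ca -0.36 (limma adjusted p = 0.624) and Ppp3cb -0.90 (limma adjusted p = 0.143), as log2 of amplified over un-amplified, each with SE 0.52 and n = 4 arrays. All 3 estimates lay below 0. Their intervals ran from -1.20 to 0.95, from -1.44 to 0.71 and from -1.98 to 0.17. After the terms for muscle, amplification and dye, the only spread left in this fit is how the amplification effect differs between the muscles. The SE and p-values rest on that difference, pooled over the features, and not on a spread between replicates.

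Behind the Ppp3cb value were unlike muscles. In slow muscle, amplified over un-amplified was -2.18, and in fast muscle it was 0.37. For Ppp2ca these were -0.17 and -0.55, and for Calm2 0.12 and -0.37. Each slow value is that of loop array 1, and each fast value that of loop array 3, less the dye effect of the loop. The Ppp3cb value moved to -0.26 without loop array 1 and to -1.54 without loop array 3, and neither has a test, because no residual is left.

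Put the other way, the fast/slow ratio of Ppp3cb in the loop was 0.69 in amplified and -1.87 in un-amplified RNA, a difference of 2.55. The dye-swap pairs gave -0.07 (files labelled amplified) and 0.46 (files labelled un-amplified), a difference of -0.53, opposite in sign to that of the loop. The mean difference was 1.01 (SE 1.08, n = 2, limma adjusted p = 0.998), and 0 of 13 features (0%) passed that test, also at an unadjusted p of 0.05 and also with each feature's own variance. With the labels of the authors' deposited table the pairs' difference becomes 0.53, the mean 1.54 and the limma adjusted p 0.261, where 5 of 13 features (38.5%) pass. No other member has a value in both experiments.

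In the loop, many CAMTA1 spots were stored with an integral of 0, a pattern that was noticed in the data and is described with that in mind. Every loop spot that was not accepted as usable has a 0 in 1 or both channels, some spots of Acta1 (skeletal actin) among them, so a 0 is a missing value here and no level or bound is read from it. On loop array 1, all 6 CAMTA1 spots were at 0 in slow amplified RNA, while slow un-amplified RNA in the other channel gave 272533 to 308524. On loop array 4, all 6 spots were again at 0 in slow amplified RNA, while fast un-amplified RNA gave 216351 to 288899. CAMTA1 was the only feature with every spot at 0 in those channels.

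For fast muscle, 5 of 6 spots were at 0 in amplified RNA on loop array 2, and the 1 usable spot gave 20927, beside 93080 to 168060 in slow un-amplified RNA. On loop array 3 fast amplified RNA gave 43272 to 56750 and fast un-amplified RNA 390127 to 616724. In total 17 of 24 amplified CAMTA1 spots were at 0, against 0 of 24 un-amplified ones. Over all features 92 of 528 amplified spots (17.4%) and 52 of 528 un-amplified spots (9.85%) were at 0, with more zeros in amplified RNA for 11 features, as many in both for 8 and fewer for 3. Myh6 had 10 and 4 of 24. For the other members, in amplified and un-amplified RNA, these counts were 5 and 5 for Calm2, 4 and 4 for Ppp3cb, and 1 and 1 for Ppp2ca.

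**Figure D4:**
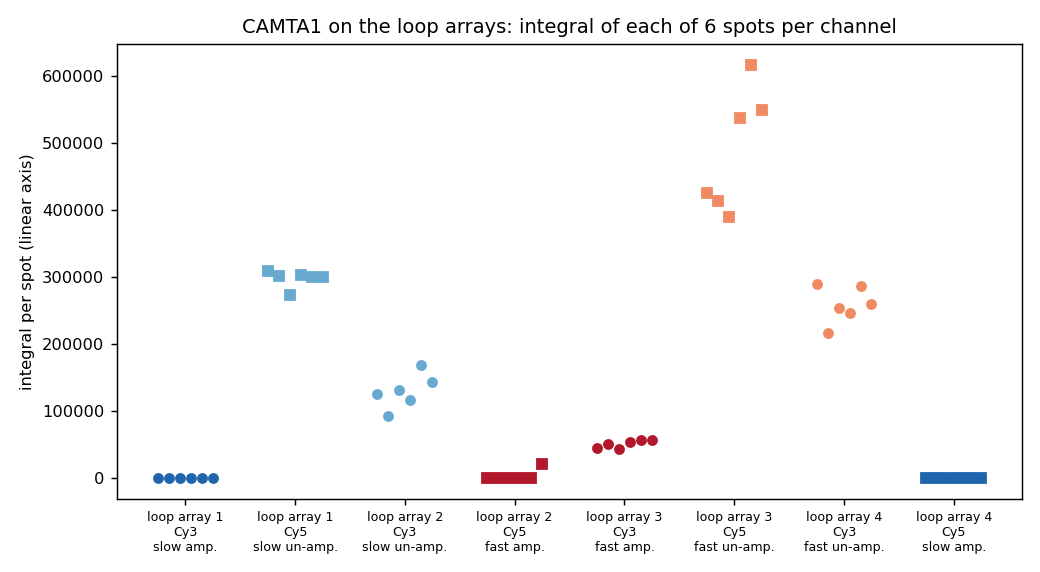
Integral of each of the 6 CAMTA1 spots in both channels of the 4 loop arrays on a linear axis, circles Cy3 and squares Cy5, coloured by muscle and kind of RNA. Points at 0 are spots not accepted as usable: 17 of 24 in amplified RNA and 0 of 24 in un-amplified RNA.

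A ratio of amplified to un-amplified RNA could thus be formed for CAMTA1 on loop array 2, from 1 spot, and on loop array 3, from 6, and it was below the array's middle on both. Ppp2ca was below it on all 4 loop arrays. Of all 22 features, 6 (27.3%) lay below it on every loop array with a ratio, and 12 (54.5%) lay on one side throughout. Loop arrays 2 and 4 also set unlike muscles side by side, so amplification and muscle cannot be told apart on either. The loop fit has no estimate for CAMTA1. In the fit of all 8 arrays its amplification term was -2.42 (SE 0.62, n = 6 arrays, limma adjusted p = 0.00600), where 11 of 22 features (50%) passed. Only loop arrays 2 and 3 set amplified against un-amplified RNA for CAMTA1. The estimate also depends on the dye term and on a muscle term of -0.32, which draw on the weak dye-swap values. This fit counts both arrays of a dye-swap pair singly, though they may hold the same extracts.

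The direction held on loop arrays 2 and 3 under other scalings. Slow un-amplified over fast amplified on loop array 2 was 2.43, with 2.77 without centring and 1.68 after loess. Fast amplified over un-amplified on loop array 3 was -2.74, with -3.25 without centring and -0.98 after loess. In the dye-swap arrays, the pair with the near-empty CAMTA1 channels is the one whose scanner files are labelled un-amplified, and whose columns in the authors' deposited table are labelled amplified.

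The features whose ratios ran most like those of each member over the arrays are given as descriptions, since these arrays share RNA and dyes. Calm2 ran most like Pvalb (r = 0.72) and Myh1 (r = 0.71), each over 7 arrays. Ppp3cb ran most like CAMTA1 (r = 0.71 over 6 arrays) and Csrp3, a muscle LIM protein (r = 0.57 over 8 arrays). Ppp2ca ran most like Myh6 (r = 0.87 over 6 arrays) and the unnamed feature of probes 97 to 102 (r = 0.78 over 7 arrays). CAMTA1 ran most like Csrp3 (r = 0.92) and the same unnamed feature (r = 0.85), each over 6 arrays. Its values furthest from 0 were those of loop array 2 (2.43, from 1 spot) and loop array 3 (-2.74). Csrp3 read 2.14 and -2.95 on these arrays, so the likeness leans on them.

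Few other genes of these pathways are on the array. Of 25 listed genes of calcium and calmodulin signalling it holds 3, all of them members, and of 9 listed subunits of protein phosphatase 2A it holds 1, Ppp2ca; none passed either test. Of 12 listed calcium-binding or calcium-handling muscle genes it holds 5, of which 4 could be tested between muscles: the calcium buffer Pvalb was higher in FDB (log2 2.25, limma adjusted p = 0.000226, n = 3) and the calcium sensor Tnnc1 lower (-1.35, limma adjusted p = 0.0232, n = 3).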

How the data were processed

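Per the file headers, the dye-swap files are ImaGene 5.5 output: mean and median pixel intensity of each spot, its background intensity, the SD of the background and the signal area as signal values, and a spot code. The loop sheets hold deposited integral intensities, background, the fraction of unsaturated pixels, a median pixel ratio and a letter code of spot use. No source used here names their software. The authors' series table gives 1 ratio per probe and array, Cy3 over Cy5, scaled by 1 factor per array. Their match to the spots placed all 132 probes, 130 by their own ratios and 2 by the layout of 3 adjacent spots. For 1 array the file headers give the other dyes than the file names; headers were used.

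Dye-swap mean intensities were corrected by normexp (offset 50). Loop integrals were used as deposited and assumed to be background-subtracted. Usable spots were averaged as log2 ratios, and arrays were centred on the median feature. limma 3.58.1 in R 4.3.3 tested features with at least 2 replicate ratios, two-sided, with Benjamini-Hochberg adjustment over all features at 0.05. Mean and median pixel intensity were both looked at before the mean was kept. Named features are the members, the 2 features most like each, and listed muscle markers. The members, gene lists and tests were chosen with earlier results of these data known. The tests were run on simulated data first. The number of arrays limits the precision.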

Additional observations from a re-analysis of the deposited data

How the results depend on the processing

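No member passed the threshold in the fast/slow, amplification or label-dependent comparison under any alternative tried; CAMTA1, which the loop fit cannot estimate, passed for amplification in the fit of all 8 arrays given above; the fit with marked spots kept is not read for CAMTA1, since it puts a floor in place of 17 of its 24 amplified spots. Calm2 stayed above 0 between muscles under all 15 alternatives (0.30 to 1.07). Own variances, and leaving out the first pair where Calm2 has no value, did not change its estimate. Leaving out the second pair or the loop left Calm2 too few ratios to test. Ppp3cb stayed below 0 for amplification under all 11 (-1.54 to -0.26), and its difference stayed above 0 under all 14 (0.50 to 2.32). Its amplification estimate was the same with features near background left out, with own variances and in the fit of all 8 arrays. Between muscles, Ppp3cb turned to 0.12 without centring, 0.0768 with marked spots kept, and 0.0046 with the authors' ratios, and ranged from -0.33 to 0.20 when 1 replicate ratio was left out. Ppp2ca turned to 0.18 without centring, 0.0677 with plain and 0.0700 with no background subtraction, 0.0511 with the authors' ratios and 0.14 with the dyes of the file names. With settings chosen after seeing the data it turned to 0.0316 (median pixel signal) and 0.0150 (no offset). CAMTA1 turned to 0.0057 after loess and to 0.11 without background subtraction. For amplification, loess turned Calm2 to 0.18 and Ppp2ca to 0.46, and marked spots turned Calm2 to 0.0767. The cause of these turns was not tested.

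Of all features, the 5 called between muscles became 1 after loess, 0 with the dyes of the file names, 0 with each feature's own variance (3 at an unadjusted p of 0.05), and 0 to 5 with 1 replicate ratio left out. The 9 called for amplification (6 higher, 3 lower) became 4 without centring (1 higher, 3 lower), 4 with marked spots kept, 0 after loess and 0 with own variances (2 at an unadjusted p of 0.05). The 0 called for the difference became 5 with the labels of the authors' deposited table. Leaving out centring moved the median of all features by 0.19 between muscles and by -0.63 for amplification. With marked spots kept, signal over background in the first pair was 3.34 for Calm2 and 2.38 for Ppp2ca. The fit without loop array 2 or 4 could not be made, since muscle, amplification and dye cannot be separated on the other 3. The ratios pair the RNAs of each array. No pairing by animal was made, because the labels do not name the animals.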
